A study of Mus musculus with 15 samples.

Results

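The 10 genes described here are hypoxia-inducible genes outside core glycolysis, namely Bnip3, Ak4, Pdk1, Vegfa, Egln1, Egln3, Ankrd37, Ndrg1, Ddit4 and P4ha1. They were chosen by name from genes that low oxygen is known to raise, but with earlier results of these data known. The counts of these genes given below therefore describe a chosen set. All 10 were found among the 23352 genes of the deposited table. All 10 were also among the 11945 genes tested, those that reached 1 FPKM (fragments scaled by transcript length and library depth) in 3 or more of the 15 libraries. The libraries measured poly(A) RNA of C2C12 cells, a mouse myoblast line that can be turned into muscle fibres in culture. All cells carried a lentiviral construct. The 5 groups of 3 libraries were cells with added wild-type MLX (MLX-WT), with a form of MLX labelled DN (MLX-DN), with a hairpin RNA that targets Mlx (MLX shRNA), with a non-targeting hairpin (NT shRNA) and with a vector that expresses only GFP (GFP control). The labels do not say which promoters drove the constructs, how the DN form was made, how much oxygen or glucose the cells had, or whether replicates are separate cultures. The p-values therefore measure only how far these libraries spread, and that spread may be technical.

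Cells sense oxygen through prolyl hydroxylases, among them the products of Egln1 and Egln3, which mark the alpha subunits of hypoxia-inducible factor (HIF) for destruction through the VHL protein. When oxygen is short, HIF alpha pairs with the protein of Arnt and binds short DNA sites with the core ACGTG or GCGTG. MLX is a partner of the glucose-sensing factors MondoA and ChREBP, and these pairs bind sites made of E-boxes, whose core is CACGTG. The letters of that E-box contain the HIF core on both strands. The proteins of the 10 genes fall into a mitochondrial and energy group (Bnip3, Pdk1, Ak4), secreted and matrix factors (Vegfa, P4ha1), oxygen sensors (Egln1, Egln3) and stress regulators (Ndrg1, Ddit4), with Ankrd37 as an ankyrin repeat protein of less settled function.

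Mlx itself averaged 644 ± 11.6 FPKM in MLX-WT cells, 394 ± 8.76 in MLX-DN cells and 3.21 ± 0.645 in MLX shRNA cells, against 17.1 ± 0.778 in NT shRNA cells and 17.1 ± 0.516 in GFP control cells (SD, n = 3 libraries in this and every group mean that follows). Estimated depth ran from 37.0 to 82.7 M reads per library, at which 3 reads on a transcript of 2000 bases make 0.0181 to 0.0406 FPKM, a limit that covers counting error only. Although the labels say myoblasts, all 12 genes listed as markers of differentiating muscle passed the filter. Their summed level was 15891 to 16158 FPKM in MLX-WT cells, 12114 to 12390 in MLX-DN cells, 13702 to 14965 in MLX shRNA cells, 9773 to 10026 in NT shRNA cells and 14706 to 14965 in GFP control cells. All 7 myoblast markers were present too, at summed levels of 1547 to 1825 FPKM. Fibroblast markers, 5 of 8 tested and Tcf21 at 0, summed to 1080 to 1098 FPKM in MLX-WT cells, 696 to 720 in MLX-DN cells, 385 to 391 in MLX shRNA cells, 1256 to 1326 in NT shRNA cells and 1440 to 1464 in GFP control cells. Endothelial markers summed to at most 2.12 FPKM with 1 of 8 tested and with Tie1 and Emcn at 0 in all libraries, macrophage markers to at most 8.55 with 3 of 8 tested and Emr1 at 0, and adipocyte markers to at most 3.60 with 1 of 7 tested and Retn at 0. Ptprc of the macrophage list was at 0 in 11 libraries and reached 4.74 FPKM. Its MLX-DN libraries were all above those of MLX-WT and of NT shRNA. The part of these marker differences in the results below was not tested.

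Differences are given as log2 changes on the log2(FPKM + 2) scale of the deposited values, which understates changes of low genes such as Ak4, and as ratios of mean FPKM where a ratio is named. A difference is called where the adjusted p of limma's test was under 0.05. Libraries of a group were close to each other and most tested genes were called in every comparison, so each count of the 10 genes is set beside the share of all tested genes called. In bulk RNA a change in the share of cells that express a gene cannot be told apart from a change in RNA per cell.

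The 10 genes did not share a single order of levels over the 5 groups. Bnip3, Pdk1, Ak4, Ndrg1 and Vegfa had their lowest values in GFP control cells, with all 3 GFP control libraries below all 12 others, as 15.2% of tested genes had. P4ha1, Ankrd37, Egln1 and Ak4 had all 3 MLX-WT libraries above all 12 others, as 6.11% of tested genes had. Bnip3 and Pdk1 were highest in the 3 MLX-DN libraries (7.16% of tested genes), and Ndrg1 and Vegfa in the 3 MLX shRNA libraries (13.9%). P4ha1 was lowest in the 3 MLX shRNA libraries (12.6%) and Ddit4 in the 3 MLX-DN libraries (16.2%). None of the 10 had the NT shRNA libraries above or below all 12 others, where 8.67% and 4.01% of tested genes did.

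**Figure D1:**
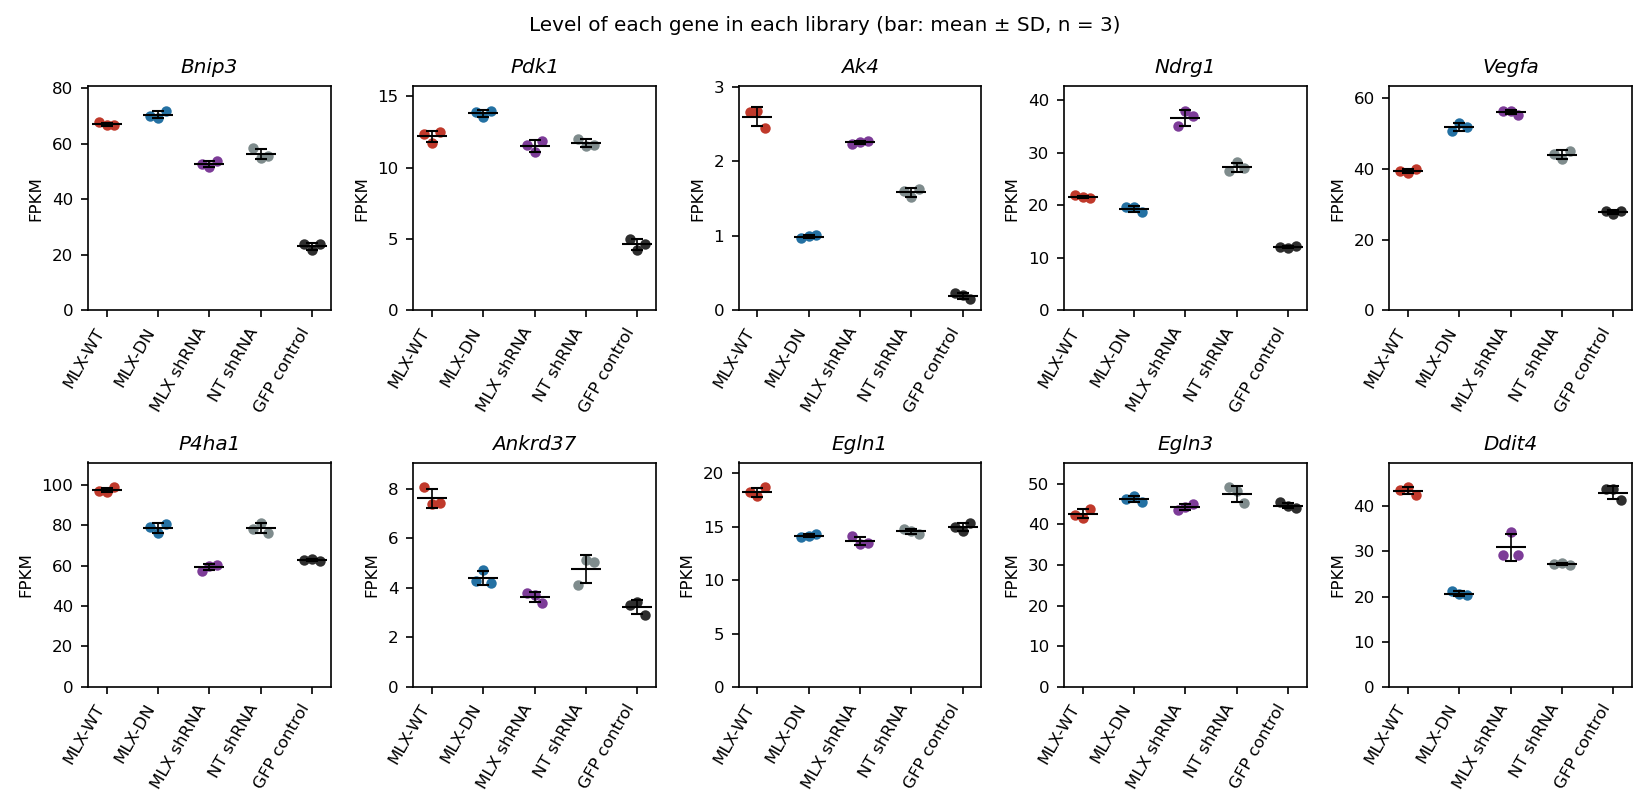
Level in FPKM (y axis, from 0) of each of the 10 genes in each library by group (x axis), with 1 point per library and the mean ± SD of the 3 libraries as a bar. Bnip3, Pdk1, Ak4, Ndrg1 and Vegfa are lowest in GFP control cells, P4ha1, Ankrd37, Egln1 and Ak4 are highest in MLX-WT cells, and Egln3 differs little between groups.

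The sequences before the transcription starts of 5 of the genes are shown. Each of the 5 carries the HIF core there, as did 8 of the 9 genes with a listed start, and Bnip3 carries it inside an E-box. The sequences are from RefSeq on GRCm38.p6, 5′ to 3′ on the strand of the gene, and stop where an annotated exon begins, so 13, 70 and 17 bases nearest the start are left out for Bnip3, Egln1 and Ankrd37. Bnip3 is from chr7:138909520-138909756 on the minus strand and Pdk1 from chr2:71872974-71873223 on the plus strand. P4ha1 is from chr10:59323046-59323295 on the plus strand. Ankrd37 is from chr8:45999868-46000100 and Egln1 from chr8:124949325-124949504, both on the minus strand. Capitals mark every ACGTG or GCGTG on either strand in the bases shown (read as CACGT or CACGC when on the other strand), and the run CACGTG in Bnip3 is the E-box. The bases left out hold a further core of Egln1, 68 bases before its start, and of Ankrd37, 6 bases before its start.
Bnip3: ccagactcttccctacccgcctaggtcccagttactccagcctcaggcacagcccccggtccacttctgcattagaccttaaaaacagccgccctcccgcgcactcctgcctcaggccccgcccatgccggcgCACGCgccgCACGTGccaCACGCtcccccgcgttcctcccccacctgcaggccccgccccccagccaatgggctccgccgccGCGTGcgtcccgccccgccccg
Pdk1: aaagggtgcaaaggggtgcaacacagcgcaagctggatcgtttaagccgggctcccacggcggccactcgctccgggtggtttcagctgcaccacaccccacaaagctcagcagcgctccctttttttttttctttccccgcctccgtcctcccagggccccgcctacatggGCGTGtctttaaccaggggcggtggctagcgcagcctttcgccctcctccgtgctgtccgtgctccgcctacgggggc
P4ha1: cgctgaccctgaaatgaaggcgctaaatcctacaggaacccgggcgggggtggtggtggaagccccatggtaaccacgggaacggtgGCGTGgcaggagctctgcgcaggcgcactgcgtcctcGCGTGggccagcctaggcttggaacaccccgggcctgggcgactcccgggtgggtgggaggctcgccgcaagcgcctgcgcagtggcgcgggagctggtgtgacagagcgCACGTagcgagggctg
Ankrd37: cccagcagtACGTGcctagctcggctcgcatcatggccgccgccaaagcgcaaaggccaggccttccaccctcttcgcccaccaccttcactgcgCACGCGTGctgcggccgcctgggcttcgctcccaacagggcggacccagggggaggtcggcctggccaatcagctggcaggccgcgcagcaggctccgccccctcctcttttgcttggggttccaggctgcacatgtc
Egln1: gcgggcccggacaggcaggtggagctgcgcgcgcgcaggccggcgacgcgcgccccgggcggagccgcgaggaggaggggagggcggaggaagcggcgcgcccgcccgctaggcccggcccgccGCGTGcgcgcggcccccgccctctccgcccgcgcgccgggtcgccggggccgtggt

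Of the 10 genes, 9 had an entry in the RefSeq promoter table, with 14 listed starts among them, and Ndrg1 did not. In the 250 bases before a start, searched on both strands, ACGTG or GCGTG was found at some start of all 9 genes, against 41.54% of the 27025 genes in the table. At the most upstream listed start it was found for 8 of the 9, Vegfa being the exception. Vegfa matched only at its other listed start, where 218 of the 250 bases searched are annotated as Vegfa exon. CACGTG was found for Bnip3, 108 bases before its start, and at the fourth listed start of Ak4, 214 bases before it, against 6.86% of all genes. Such a match describes letters in this window and is not evidence of binding, and the genes were chosen as HIF-responsive.

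**Figure D2:**
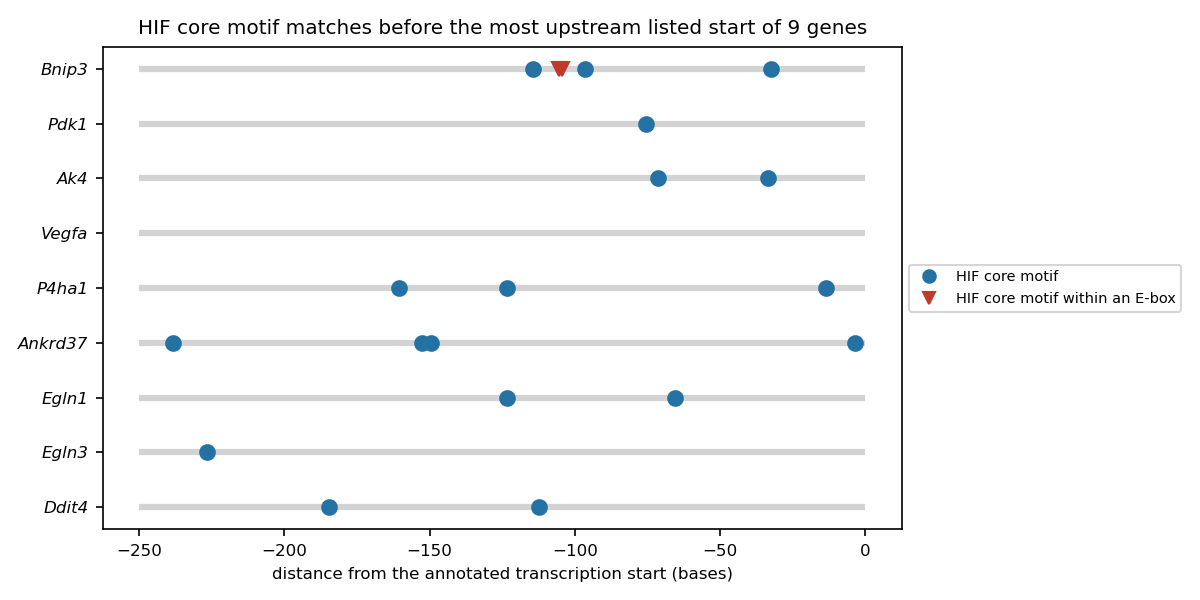
Positions of ACGTG or GCGTG on either strand (circles) and of such cores inside CACGTG (triangles) in the 250 bases before the most upstream listed start of 9 genes, by distance from the start in bases (x axis) and gene (rows). 8 of the 9 genes have a match in the window, Vegfa has none there, and Bnip3 alone has the E-box at this start.

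With added MLX-WT, 8 of the 10 genes were higher than in GFP control cells and none was lower, where 27.6% of all tested genes were called higher and 42.7% lower. The median log2 change of the 10 was 0.68, against -0.05 over all tested genes. A change of at least 1.5-fold was reached by 6 of the 10, against 6.86% of tested genes. Egln3 and Ddit4 did not pass the test. Against NT shRNA, the other control, 6 were higher and 3 lower, where 25.7% and 44.3% of tested genes were. The median was 0.27 against -0.06. On the log2 scale 1 gene, Ddit4, reached 1.5-fold, where 5.53% of tested genes did. Ak4 and Ankrd37 had ratios of mean FPKM of 1.64 and 1.60 but fell short on that scale. The controls carry different constructs, and what sets them apart cannot be told apart into hairpin, vector and culture. The comparisons against the GFP control share its 3 libraries, and those against NT shRNA share its 3.

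The 3 mitochondrial and energy genes were all far higher in NT shRNA cells than in GFP control cells. Bnip3, whose protein sits in the outer mitochondrial membrane and recruits the machinery that removes mitochondria, had 67.6, 66.6 and 66.5 FPKM in MLX-WT cells, 69.9, 69.3 and 71.7 in MLX-DN cells and 52.6, 51.7 and 53.6 in MLX shRNA cells, against 58.3, 54.8 and 55.4 in NT shRNA cells and 23.8, 21.7 and 23.7 in GFP control cells. Every library but those of the GFP control stood above 50 FPKM, and the MLX-WT and MLX-DN libraries did not overlap with those of either control. Bnip3 rose by 1.46 (SE 0.0322, adjusted p = 5.46e-15, a ratio of 2.90) in MLX-WT cells and by 1.53 (adjusted p = 1.35e-15, a ratio of 3.05) in MLX-DN cells against the GFP control. Most of that gap was also present between the controls, since NT shRNA stood 1.22 above the GFP control (adjusted p = 2.60e-14, a ratio of 2.44). Against NT shRNA the changes were 0.24 in MLX-WT cells (adjusted p = 6.64e-06) and 0.31 in MLX-DN cells (adjusted p = 5.18e-07). In MLX shRNA cells, Bnip3 was lower than in NT shRNA cells by a log2 change of -0.09 (adjusted p = 0.0203), a call that was lost without MLX shRNA replicate 2 (adjusted p = 0.0659) or without NT shRNA replicate 1 (adjusted p = 0.107), and with libraries centred on their medians (adjusted p = 0.338). The 504 bases that Bnip3 exons share with a gene annotated on the opposite strand, Gm45507, are 22.3% of its exon bases, and the sources do not say whether reads were counted by strand.

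Pdk1 encodes a kinase that switches off pyruvate dehydrogenase and so limits the entry of pyruvate into the citric acid cycle. It had 12.4, 11.8 and 12.5 FPKM in MLX-WT cells, 13.9, 13.6 and 13.98 in MLX-DN cells and 11.6, 11.1 and 11.9 in MLX shRNA cells, against 12.01, 11.6 and 11.6 in NT shRNA cells and 4.996, 4.23 and 4.66 in GFP control cells. The 3 GFP control libraries stood far below the other 12, while MLX-WT, MLX shRNA and NT shRNA libraries overlapped. Pdk1 rose against the GFP control by 1.10 in MLX-WT cells (adjusted p = 8.90e-13, a ratio of 2.64) and by 1.25 in MLX-DN cells (adjusted p = 9.44e-14, a ratio of 2.98), and NT shRNA stood above the GFP control by 1.05 (adjusted p = 1.05e-12). Against NT shRNA the change in MLX-WT cells was 0.05 (adjusted p = 0.260, and 0.0126 with median centring), that in MLX-DN cells 0.20 (adjusted p = 0.000212) and that in MLX shRNA cells -0.02 (adjusted p = 0.622), which was 0.00031 without MLX shRNA replicate 2.

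Ak4, a mitochondrial adenylate kinase, was the lowest of the 10 genes in every group. It had 2.66, 2.67 and 2.45 FPKM in MLX-WT cells, 0.969, 0.997 and 1.004 in MLX-DN cells and 2.24, 2.26 and 2.27 in MLX shRNA cells, against 1.60, 1.51 and 1.63 in NT shRNA cells and 0.233, 0.205 and 0.156 in GFP control cells. No 2 groups overlapped. The ratio of means to the GFP control was 13.1 in MLX-WT cells and 7.995 in NT shRNA cells. Ak4 rose against the GFP control by 1.06 in MLX-WT cells (adjusted p = 4.68e-14), by 0.44 in MLX-DN cells (adjusted p = 7.31e-10) and by 0.71 in NT shRNA cells (adjusted p = 4.21e-12). With 0.1 in place of 2 as the offset, these changes were 3.18 in MLX-WT cells, 1.88 in MLX-DN cells and 2.51 in NT shRNA cells. Against NT shRNA, Ak4 rose in MLX-WT cells by 0.36 (adjusted p = 2.24e-08, a ratio of 1.64) and in MLX shRNA cells by 0.25 (adjusted p = 1.34e-06, a ratio of 1.42), and fell in MLX-DN cells by 0.26 (adjusted p = 9.78e-07). Relative to NT shRNA cells, the groups with raised Mlx RNA thus differed in direction, with Ak4 higher in MLX-WT cells and lower in MLX-DN cells.

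**Figure D3:**
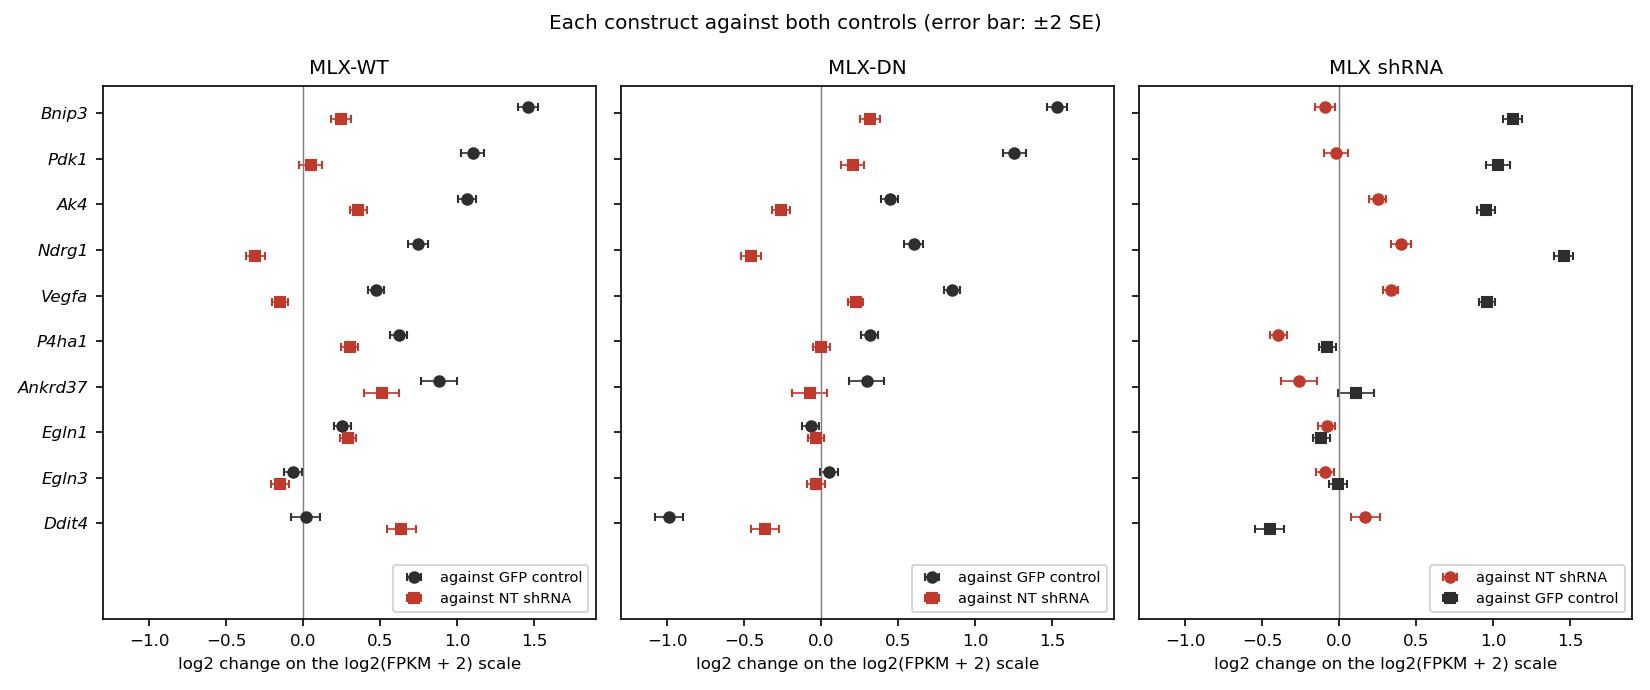
Log2 change (x axis, log2(FPKM + 2) scale) of each gene (rows) for the 3 MLX constructs (panels), against the own control of each construct (circles) and the other control (squares), where black is the GFP control, red is NT shRNA and bars are 2 SE to each side. Bnip3, Pdk1, Ak4, Ndrg1 and Vegfa lie to the right against the GFP control in all 3 panels and shift left against NT shRNA, whereas Egln1 and Egln3 keep nearly the same place.

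P4ha1, Ankrd37 and Egln1 were higher in MLX-WT cells than in both controls and lower in MLX shRNA cells than in NT shRNA cells. P4ha1 encodes the catalytic subunit of the prolyl hydroxylase that stabilises collagen. Its level was 97.1, 96.6 and 98.6 FPKM in MLX-WT cells, 79.2, 75.9 and 80.5 in MLX-DN cells and 57.4, 59.9 and 60.5 in MLX shRNA cells, against 78.3, 81.2 and 76.4 in NT shRNA cells and 62.7, 63.0 and 62.4 in GFP control cells. MLX-WT libraries were all above and MLX shRNA libraries all below every other library. P4ha1 rose in MLX-WT cells by 0.62 against the GFP control (adjusted p = 1.89e-11, a ratio of 1.55) and by 0.30 against NT shRNA (adjusted p = 1.11e-07). It fell in MLX shRNA cells by 0.40 against NT shRNA (adjusted p = 4.42e-09, a ratio of 0.754). Against the GFP control the change in MLX shRNA cells was -0.08 (adjusted p = 0.0161), and this call was lost without MLX shRNA replicate 1 (adjusted p = 0.0802) or with median centring (adjusted p = 0.380). In MLX-DN cells it rose by 0.32 against the GFP control (adjusted p = 3.03e-08), and its mean of 78.6 FPKM stood beside 78.6 in NT shRNA cells (adjusted p = 0.975), with a change of 0.02 without MLX-DN replicate 2 and of 0.09 that passed the test with median centring (adjusted p = 0.0105).

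Ankrd37 had 8.05, 7.39 and 7.41 FPKM in MLX-WT cells, 4.28, 4.73 and 4.21 in MLX-DN cells and 3.78, 3.695 and 3.405 in MLX shRNA cells, against 4.12, 5.13 and 5.04 in NT shRNA cells and 3.32, 3.45 and 2.89 in GFP control cells. The 3 MLX-WT libraries stood alone at the top, MLX-DN overlapped with NT shRNA, and MLX shRNA overlapped with the GFP control. Ankrd37 rose in MLX-WT cells by 0.88 against the GFP control (SE 0.0573, adjusted p = 1.82e-09, a ratio of 2.37) and by 0.51 against NT shRNA (adjusted p = 1.19e-06, a ratio of 1.60). It fell in MLX shRNA cells by 0.26 against NT shRNA (adjusted p = 0.000769), whereas against the GFP control the change was 0.11 (adjusted p = 0.0934, and 0.0145 with median centring). In MLX-DN cells it rose by 0.30 against the GFP control (adjusted p = 0.000198), while against NT shRNA the change was -0.08 (adjusted p = 0.250), which passed the test without NT shRNA replicate 1 (adjusted p = 0.0213). Exons of Ankrd37 share 22.7% of their bases with Lrp2bp, which had at most 0.224 FPKM, and 3.7% with Ufsp2, both on the opposite strand. Ufsp2 averaged 26.2 FPKM in MLX-WT cells, 30.5 in MLX-DN cells and 33.4 in MLX shRNA cells, against 31.3 in NT shRNA cells and 24.5 in GFP control cells. In MLX-WT cells it was higher than in the GFP control (0.09, adjusted p = 0.00795) and lower than in NT shRNA cells (-0.24, adjusted p = 1.06e-06). The part of these 2 genes in the Ankrd37 values was not tested.

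The oxygen sensors differed from each other. Egln1, the main HIF prolyl hydroxylase in most cells, had 18.2, 17.8 and 18.7 FPKM in MLX-WT cells, 14.04, 14.1 and 14.3 in MLX-DN cells and 14.1, 13.4 and 13.48 in MLX shRNA cells, against 14.8, 14.6 and 14.3 in NT shRNA cells and 14.99, 14.6 and 15.3 in GFP control cells. The MLX-WT libraries were above all 12 others. MLX-DN and MLX shRNA overlapped with each other, as did the controls, and all libraries of MLX-DN and MLX shRNA were below those of both controls by small margins. Egln1 rose in MLX-WT cells by 0.26 against the GFP control (adjusted p = 4.37e-07) and by 0.29 against NT shRNA (adjusted p = 1.20e-07), and the controls did not differ past the threshold (-0.03, adjusted p = 0.256). The change in MLX shRNA cells against NT shRNA was -0.08 (adjusted p = 0.0115), and this call was lost with median centring (adjusted p = 0.338), with quantile normalization (adjusted p = 0.253) and when the 2 groups were fitted alone (adjusted p = 0.0526). That in MLX-DN cells against the GFP control was -0.07 (adjusted p = 0.0241), a call lost without GFP control replicate 1 or 3 or without MLX-DN replicate 1 or 2 (adjusted p between 0.0538 and 0.1002) and turned in sign to 0.02 by median centring. Egln3, the sister enzyme that is strongly expressed in muscle, had 42.4, 41.7 and 43.8 FPKM in MLX-WT cells, 46.3, 47.1 and 45.5 in MLX-DN cells and 43.6, 44.4 and 44.96 in MLX shRNA cells, against 49.1, 48.2 and 45.3 in NT shRNA cells and 45.4, 44.45 and 44.1 in GFP control cells. The MLX-WT libraries lay just below those of the GFP control, and the other groups overlapped with at least 1 neighbour. Its group means spanned 0.15 on the log2 scale, the smallest span among the 10 genes, against 1.53 for Bnip3. The changes of Egln3 were -0.06 in MLX-WT cells (adjusted p = 0.0595) and 0.05 in MLX-DN cells (adjusted p = 0.126) against the GFP control. The MLX-WT value passed the test without MLX-WT replicate 3 (adjusted p = 0.0330), and the MLX-DN value with median centring (0.14, adjusted p = 0.000278). In MLX shRNA cells it was -0.10 against NT shRNA (adjusted p = 0.00808, and 0.189 with median centring).

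Ndrg1 and Vegfa were highest when Mlx was knocked down. Ndrg1 encodes a stress-responsive cytoplasmic protein that curbs growth in several cell types. It had 21.9, 21.6 and 21.4 FPKM in MLX-WT cells, 19.7, 19.7 and 18.7 in MLX-DN cells and 35.0, 38.0 and 37.0 in MLX shRNA cells, against 26.5, 28.2 and 27.2 in NT shRNA cells and 12.03, 11.9 and 12.4 in GFP control cells. No 2 groups overlapped, and both hairpin groups were above both MLX protein groups. Ndrg1 rose in MLX shRNA cells by 0.40 against NT shRNA (adjusted p = 1.80e-08, a ratio of 1.34) and by 1.46 against the GFP control (adjusted p = 1.07e-15, a ratio of 3.03). It was higher than in GFP control cells in MLX-WT cells, by 0.75 (adjusted p = 9.84e-12), and in MLX-DN cells, by 0.60 (adjusted p = 6.53e-11), yet lower than in NT shRNA cells by log2 changes of -0.31 (adjusted p = 3.82e-07) and -0.46 (adjusted p = 7.54e-09). Between the controls Ndrg1 differed by 1.06 (adjusted p = 9.81e-14), NT shRNA being higher. Opposite-strand genes Gm17035 and Gm2895 share 6.35% and 2.08% of its exon bases.

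Vegfa encodes the growth factor that draws new vessels into poorly supplied tissue. It had 39.4, 38.8 and 39.9 FPKM in MLX-WT cells, 50.6, 52.8 and 51.7 in MLX-DN cells and 56.2, 56.3 and 55.3 in MLX shRNA cells, against 44.2, 42.7 and 45.1 in NT shRNA cells and 28.16, 27.2 and 28.15 in GFP control cells. No 2 groups overlapped here either, and MLX-WT lay between the controls. Vegfa rose in MLX shRNA cells by 0.33 against NT shRNA (adjusted p = 9.56e-09) and by 0.96 against the GFP control (adjusted p = 9.03e-15, a ratio of 2.01). In MLX-DN cells it rose by 0.85 against the GFP control (adjusted p = 6.24e-14) and by 0.22 against NT shRNA (adjusted p = 1.17e-06). In MLX-WT cells it rose by 0.47 against the GFP control (adjusted p = 1.34e-10) and was lower than in NT shRNA cells by a log2 change of -0.15 (adjusted p = 6.23e-05).

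Ddit4, an inhibitor of the growth kinase complex mTORC1 that is raised by many stresses, set MLX-DN apart from MLX-WT. It had 43.6, 44.1 and 42.5 FPKM in MLX-WT cells, 21.2, 20.5 and 20.3 in MLX-DN cells and 29.3, 34.3 and 29.1 in MLX shRNA cells, against 27.2, 27.4 and 26.9 in NT shRNA cells and 43.7, 43.8 and 41.3 in GFP control cells. MLX-WT and GFP control libraries overlapped at the top, and MLX-DN libraries were below all others. Ddit4 fell in MLX-DN cells by 0.99 against the GFP control (adjusted p = 1.60e-11, a ratio of 0.481) and by 0.36 against NT shRNA (adjusted p = 4.56e-06). In MLX-WT cells the change was 0.02 against the GFP control (adjusted p = 0.774, and -0.012 without GFP control replicate 3) and 0.64 against NT shRNA (adjusted p = 7.60e-09, a ratio of 1.60). It rose in MLX shRNA cells by 0.17 against NT shRNA (adjusted p = 0.00403) and was lower than in GFP control cells by a log2 change of -0.45 (adjusted p = 1.92e-07). NT shRNA was itself below the GFP control by a log2 change of -0.62 (adjusted p = 6.95e-09).

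In MLX-DN cells, 7 of the 10 genes were higher and 2 lower than in GFP control cells, where 32.6% of tested genes were called higher and 48.8% lower, and 5 reached 1.5-fold, where 15.4% of tested genes did. Against NT shRNA, 3 were higher and 3 lower, where 21.0% and 48.7% of tested genes were. None reached 1.5-fold on the log2 scale, as 2.63% of tested genes did, though Ak4 had a ratio of mean FPKM of 0.625. The median log2 change of the 10 genes was 0.38 against the GFP control and -0.04 against NT shRNA, where the medians over all tested genes were -0.08 in both. Set directly against MLX-WT, MLX-DN libraries had 3 of the 10 genes higher and 6 lower, where 33.2% and 38.9% of tested genes were. The 3 of at least 1.5-fold (5.90% of tested genes in either direction and 4.14% downwards) were Ddit4 at -1.003 (adjusted p = 3.58e-11), Ak4 at -0.62 (adjusted p = 3.58e-11) and Ankrd37 at -0.59 (adjusted p = 2.32e-07). Pdk1 was higher in MLX-DN cells than in MLX-WT cells by 0.15 (adjusted p = 0.00192). Bnip3 was higher in all 3 MLX-DN libraries than in the 3 MLX-WT libraries, with a change of 0.07 that did not pass the test (adjusted p = 0.0638) but did with quantile normalization (0.10, adjusted p = 0.00835).

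In MLX shRNA cells, 4 of the 10 genes were higher and 5 lower than in NT shRNA cells, where 30.8% of tested genes were called higher and 39.3% lower. None changed by 1.5-fold, as 5.91% of tested genes did, and the median of the 10 was -0.05, against -0.02 over all tested genes. Against the GFP control, 5 were higher and 3 lower, where 37.3% and 42.8% of tested genes were, and all 5 that were higher passed 1.5-fold, where 15.8% of tested genes did in either direction and 6.06% upwards. Those 5 were Bnip3, Pdk1, Ak4, Ndrg1 and Vegfa, which were also at least 1.5-fold higher in NT shRNA cells than in GFP control cells (3.98% of tested genes). Between the controls, NT shRNA had 8 of the 10 genes higher than the GFP control and 1, Ddit4, lower, where 37.0% and 37.1% of tested genes were.

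**Figure D4:**
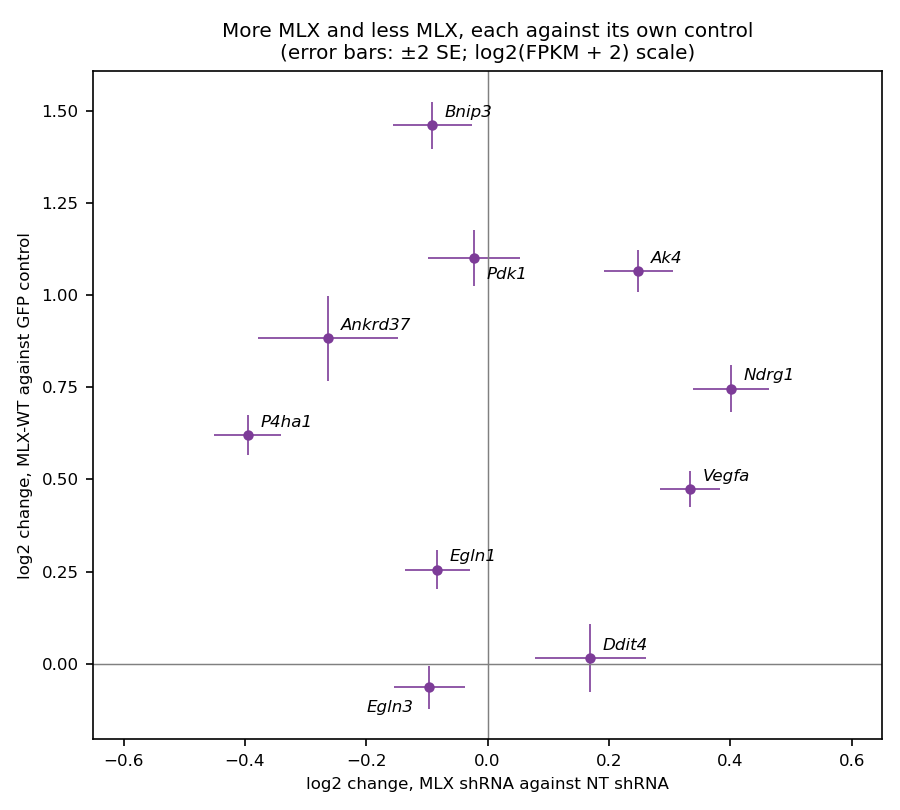
Log2 change in MLX shRNA cells against NT shRNA (x axis) and in MLX-WT cells against the GFP control (y axis) for each gene, on the log2(FPKM + 2) scale with bars of 2 SE to each side. P4ha1, Ankrd37, Bnip3 and Egln1 lie at the upper left, and Ak4, Ndrg1 and Vegfa at the upper right.

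The effect of MLX-WT against the GFP control was then set against the effect of MLX shRNA against NT shRNA, a difference of differences with no shared library. It was above 0 for 8 of the 10 genes and below 0 for 1, where 29.5% and 35.9% of tested genes were called, and 5 of the 10 reached 1.5-fold, where 10.6% of tested genes did. By its form this difference includes the gap of NT shRNA over the GFP control. Among the 8 genes that gap ran from -0.03 for Egln1 to 1.22 for Bnip3, with Ndrg1 at 1.06 and Vegfa at 0.62. Ndrg1 and Vegfa, at differences of 0.35 and 0.14, were nonetheless higher in MLX shRNA cells than in MLX-WT cells. The same difference with the controls exchanged was not tested. P4ha1 had a difference of 1.02 (adjusted p = 4.56e-12), Ankrd37 of 1.15 (adjusted p = 6.94e-09), Bnip3 of 1.55 (SE 0.0456, adjusted p = 1.78e-13) and Egln1 of 0.34 (adjusted p = 1.21e-06). For Egln3 the difference was 0.03 (adjusted p = 0.508). For Ddit4 it was -0.15 (adjusted p = 0.0488), and that call was lost without MLX shRNA replicate 2 (-0.08, adjusted p = 0.0839), without any of the MLX-WT or NT shRNA replicates and without GFP control replicate 1 or 2 (adjusted p between 0.0562 and 0.0997).

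The RNA of the factors upstream of the 10 genes was measured in the same libraries. Every rise or fall given from here on is against the construct's own control unless another is named, and passed the test with an adjusted p of at most 0.00468. Over all tested genes the median change was -0.05 in MLX-WT cells, -0.08 in MLX-DN cells and -0.02 in MLX shRNA cells against their own controls, -0.0013 in NT shRNA cells against the GFP control and, against NT shRNA, -0.06 in MLX-WT cells and -0.08 in MLX-DN cells, and the shares called are those given above. Hif1a, the main HIF alpha subunit here, averaged 35.4 FPKM in MLX-WT cells, 33.0 in MLX-DN cells and 36.5 in MLX shRNA cells, against 42.8 in NT shRNA cells and 34.0 in GFP control cells. The change of Hif1a did not pass the test in MLX-WT cells (0.06, adjusted p = 0.141) or MLX-DN cells (-0.04, adjusted p = 0.261) against the GFP control. Against NT shRNA it was lower in MLX-WT cells (-0.26, adjusted p = 4.52e-06) and in MLX-DN cells (-0.35, adjusted p = 1.78e-07). Hif1a fell by 0.22 in MLX shRNA cells (adjusted p = 2.49e-05). Epas1, the other alpha subunit, had group means of 0.0350 to 0.0865 FPKM and did not pass the filter. Arnt averaged 17.99 FPKM in MLX-WT cells, 18.1 in MLX-DN cells and 13.1 in MLX shRNA cells, against 19.5 in NT shRNA cells and 19.0 in GFP control cells, and fell by 0.51 in MLX shRNA cells. Vhl fell by 0.12 in MLX-WT cells, by 0.23 in MLX-DN cells and by 0.28 in MLX shRNA cells. Hif1an, the asparagine hydroxylase that also restrains HIF, rose by 0.11 in MLX-WT cells, by 0.17 in MLX-DN cells and by 0.29 in MLX shRNA cells. Egln2, the remaining prolyl hydroxylase, fell by 0.33 in MLX-WT cells and by 0.62 in MLX-DN cells, changes that were -0.08 (adjusted p = 0.113) and -0.37 against NT shRNA. Cited2, which competes with HIF for its coactivators, rose by 0.33 in MLX-WT cells and by 0.36 in MLX shRNA cells, and Arnt2, a relative of Arnt, rose by 0.78 in MLX-DN cells. In this list of oxygen sensors and HIF factors, 11 of 13 genes were tested. Of these, 3 were higher and 4 lower in MLX-WT cells, 4 and 6 in MLX-DN cells, and 5 and 5 in MLX shRNA cells. Against NT shRNA, 3 were higher and 5 lower in MLX-WT cells, and 4 and 6 in MLX-DN cells. RNA levels do not show the amount or activity of the HIF proteins.

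Other hypoxia-inducible genes were a list of 46, of which 39 were tested. In MLX-WT cells 26 were higher and 8 lower than in GFP control cells (median 0.21), and in MLX-DN cells 26 and 10 (median 0.19). NT shRNA too had 27 higher and 6 lower than the GFP control (median 0.31). Against NT shRNA, MLX-WT had 12 higher and 19 lower (median -0.07) and MLX-DN had 8 higher and 22 lower (median -0.09). In MLX shRNA cells 9 were higher and 23 lower than in NT shRNA cells (median -0.13), but 24 higher and 13 lower than in GFP control cells (median 0.11). Lox, which crosslinks collagen, fell by 1.12 in MLX shRNA cells, and Car12, a carbonic anhydrase, by 0.87. Against the GFP control, Lox changed by -1.08 in MLX shRNA cells and Car12 by 0.11. In MLX-WT cells Igfbp3, which binds insulin-like growth factors, fell by 0.80 and Tfrc, the transferrin receptor, by 0.75, and against NT shRNA these changes were -0.56 and 0.14. In MLX-DN cells Angptl4, an inhibitor of lipoprotein lipase, rose by 0.93, but against NT shRNA the change was -0.32.

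All 16 core glycolysis genes tested carry out or feed the breakdown of glucose to pyruvate and lactate. In MLX-WT cells 10 were higher and 2 lower than in GFP control cells (median 0.28), and against NT shRNA 15 were higher and 1 lower (median 0.31). In MLX-DN cells 3 were higher and 9 lower than in GFP control cells (median -0.17), where NT shRNA cells had 5 higher and 9 lower (median -0.17), and MLX-DN cells against NT shRNA had 5 higher and 9 lower (median -0.07). In MLX shRNA cells 1 was higher and 9 lower than in NT shRNA cells (median -0.14). MLX-DN against MLX-WT had 0 higher and 14 lower (median -0.32). Pgk1 rose by 0.65 and Pgam1 by 0.48 in MLX-WT cells, Hk1 fell by 0.92 and Pfkp rose by 0.49 in MLX-DN cells, and Pgam1 and Hk2 each fell by 0.33 in MLX shRNA cells. Against NT shRNA, Pfkp was lower in MLX-DN cells, with a change of -0.61 (adjusted p = 9.59e-11), and Hk1 stood at -0.46.

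Pathway partners gave the setting of each gene. Around Pdk1, 8 genes of the pyruvate dehydrogenase complex were tested, of which 5 were higher and 2 lower in MLX-WT cells, 5 and 1 in MLX-DN cells, and 4 and 1 in MLX shRNA cells. Against NT shRNA, 4 were higher and 1 lower in MLX-WT cells, and 6 and 0 in MLX-DN cells. Pdha1, the subunit Pdk1 phosphorylates, rose by 0.45 in MLX-WT cells and by 0.46 in MLX-DN cells (0.06 and 0.08 against NT shRNA), Pdhb rose by 0.39 in MLX-WT cells, by 0.50 in MLX-DN cells and by 0.37 in MLX shRNA cells, and Dlat rose by 0.29 in MLX shRNA cells. Around Bnip3, 11 of 12 mitophagy and autophagosome genes were tested, of which 7 were higher and 1 lower in MLX-WT cells, 7 and 3 in MLX-DN cells, and 5 and 4 in MLX shRNA cells. Against NT shRNA, 8 were higher and 1 lower in MLX-WT cells, and 7 and 4 in MLX-DN cells. Map1lc3a rose by 0.52 in MLX-WT cells and by 0.94 in MLX shRNA cells. Pink1, a kinase that marks damaged mitochondria, rose by 0.85 in MLX shRNA cells. Gabarapl1 fell by 0.56 and Map1lc3b by 0.48 in MLX-DN cells, changes of -0.21 and -0.10 against NT shRNA.

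Around P4ha1, 12 of 13 collagen-modifying genes were tested, of which 5 were higher and 4 lower in MLX-WT cells, 3 and 7 in MLX-DN cells, and 0 and 9 in MLX shRNA cells. Against NT shRNA, 6 were higher and 6 lower in MLX-WT cells, and 1 and 9 in MLX-DN cells. Plod2, a lysyl hydroxylase of collagen, rose by 0.63 in MLX-WT cells and fell by 0.70 in MLX shRNA cells, and P4hb, the partner subunit, rose by 0.35 in MLX-WT cells. The summed level of the fibroblast markers, mostly Col3a1 and Col1a1, was lowest in MLX shRNA cells as well, and its part in this was not tested. Of 5 receptors of VEGF, Nrp1 and Nrp2 alone passed the filter. Nrp2 fell by 0.37 in MLX-WT cells, 0.76 in MLX-DN cells and 1.33 in MLX shRNA cells, and Nrp1 by 0.22, 0.52 and 0.53. Against NT shRNA, Nrp2 was higher in MLX-WT cells (0.30, adjusted p = 5.75e-07) and stood at -0.09 in MLX-DN cells, and Nrp1 stood at 0.0037 (adjusted p = 0.889) and -0.30. Around Ddit4, 10 of 11 genes of the mTORC1 list were tested, of which 2 were higher and 5 lower in MLX-WT cells, 3 and 6 in MLX-DN cells, and 6 and 2 in MLX shRNA cells. Against NT shRNA, 2 were higher and 5 lower in MLX-WT cells, and 1 and 6 in MLX-DN cells. Sesn1 fell by 0.38 in MLX-WT cells, 0.64 in MLX-DN cells and 0.46 in MLX shRNA cells. Against NT shRNA, Sesn1 was higher in MLX-WT cells (0.08, adjusted p = 0.0453) and stood at -0.18 in MLX-DN cells. Sesn2 fell by 0.72 in MLX-DN cells, and Rptor, the scaffold of mTORC1, rose by 0.34 in MLX-WT cells and by 0.18 in MLX shRNA cells. Against NT shRNA, Sesn2 stood at -0.32 in MLX-DN cells and Rptor at 0.09 in MLX-WT cells.

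Because Ddit4 and Vegfa also respond to ATF4, the transcription factor of the amino acid and unfolded protein responses, a list of 20 genes was counted that holds Atf4 itself and genes of these responses. In MLX-WT cells 16 were higher and 3 lower (median 0.44), in MLX-DN cells 13 and 3 (median 0.41) and in MLX shRNA cells 15 and 5 (median 0.21). NT shRNA had 18 higher and 2 lower than the GFP control (median 0.49), and against NT shRNA MLX-WT had 7 higher and 9 lower (median -0.02) and MLX-DN had 3 higher and 13 lower (median -0.13). Psat1, an enzyme of serine synthesis, rose by 1.02 in MLX-WT cells and 0.72 in MLX-DN cells, and Asns, the asparagine synthetase, by 0.90 and 0.89, but set against NT shRNA they were 0.17 and -0.13 for Psat1 and 0.08 and 0.08 for Asns. In MLX shRNA cells Asns rose by 0.59 and Cth, which makes cysteine, by 1.16. Of the MLX network itself, Txnip, a textbook MondoA target, fell by 3.28 in MLX-DN cells and by 2.62 in MLX shRNA cells, and Mxi1 rose by 0.31 in MLX-WT cells, where it stood at -0.07 against NT shRNA (adjusted p = 0.128).

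**Figure D5:**
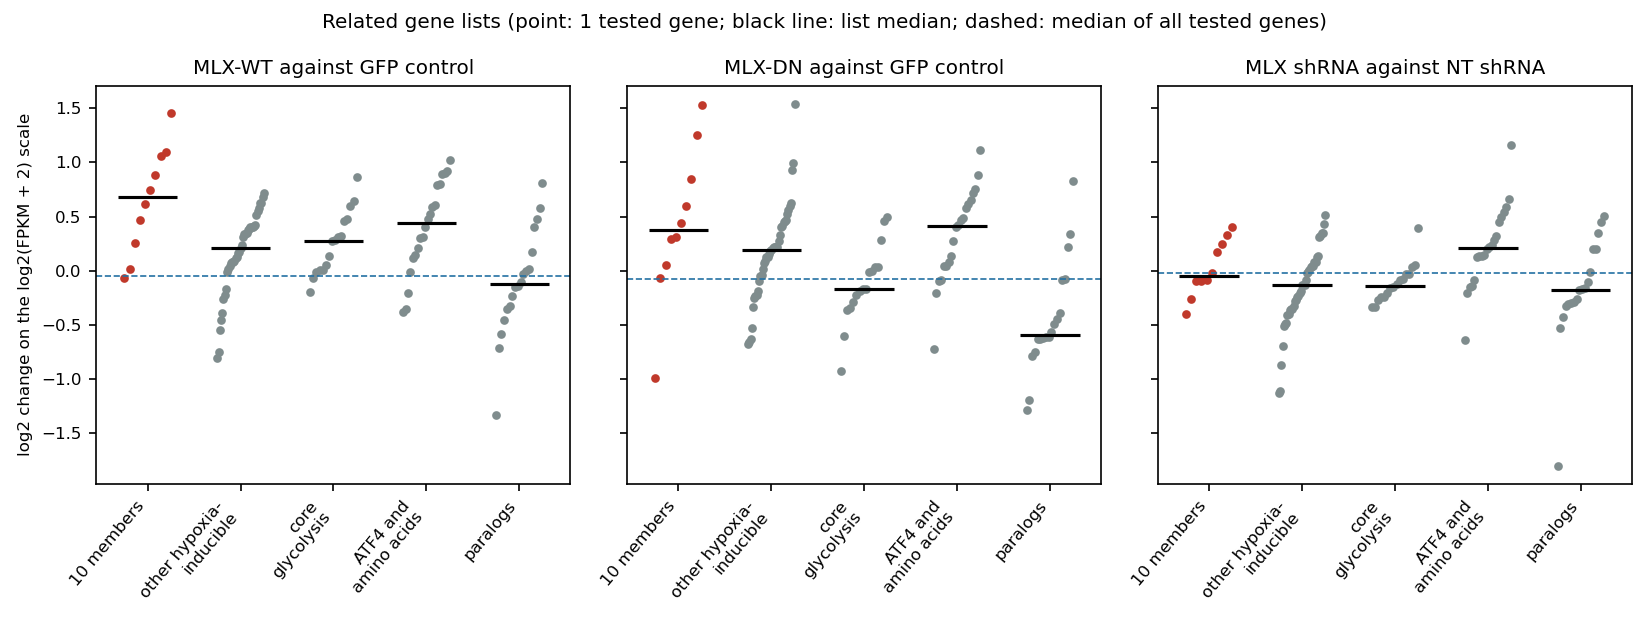
Log2 change (y axis, log2(FPKM + 2) scale) of each tested gene in 5 lists (x axis) for each construct against its own control (panels), where the black line is the list's median and the dashed line that of all tested genes. In MLX-WT cells against the GFP control the 10 genes have a median of 0.68. The other hypoxia-inducible genes have 0.21, core glycolysis 0.28, the ATF4 list 0.44 and the paralogs -0.13. Against NT shRNA, which is not drawn, the MLX-WT medians in the same order are 0.27, -0.07, 0.31, -0.02 and 0.14. In MLX shRNA cells the median of the 10 genes is -0.05.

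Near relatives of the 10 genes were counted as well. Of 19 paralogs, 18 were tested, of which 5 were higher and 9 lower in MLX-WT cells than in GFP control cells (median -0.13), 3 and 14 in MLX-DN cells (median -0.59), and 5 and 12 in MLX shRNA cells against NT shRNA (median -0.18). NT shRNA cells themselves had 1 higher and 14 lower than GFP control cells (median -0.28). Against NT shRNA, MLX-WT cells had 12 higher and 3 lower (median 0.14), and MLX-DN cells 6 and 10 (median -0.11). Bnip3l rose with all 3 constructs, by 0.41 in MLX-WT cells, 0.22 in MLX-DN cells and 0.35 in MLX shRNA cells. Pdk4, the kinase raised by fasting, fell by 0.45 in MLX-WT cells, by 1.20 in MLX-DN cells and by 0.30 in MLX shRNA cells, opposite to Pdk1 in the comparisons with the GFP control, but NT shRNA cells also stood at -1.21 against that control. Against NT shRNA, Pdk4 was higher in MLX-WT cells (0.76, adjusted p = 2.50e-10) and stood at 0.02 in MLX-DN cells (adjusted p = 0.727). Pdk3 fell in the same 3 groups by 0.35, 0.61 and 0.26, and Pdk2 by 0.14 in MLX-WT cells, where against NT shRNA Pdk3 was higher (0.13, adjusted p = 0.00530) and Pdk2 stood at 0.07 (adjusted p = 0.143). Among the adenylate kinases, Ak3 fell in the same 3 groups by 0.58, 0.79 and 0.53, Ak5 fell by 0.57 in MLX-DN cells, and Ak1 rose by 0.17 in MLX-WT cells. Against NT shRNA, Ak3 was higher in MLX-WT cells (0.11, adjusted p = 0.00435) and stood at -0.09 in MLX-DN cells, and Ak1 stood at 0.64 in MLX-WT cells and Ak5 at -0.23 in MLX-DN cells. Among the other VEGF family members, Figf rose by 0.81 in MLX-WT cells, whereas Pgf fell by 1.33 and Vegfc by 0.71 there, and Vegfb stood at -0.11 (adjusted p = 0.144). Against NT shRNA, Vegfc was higher in MLX-WT cells (0.41, adjusted p = 2.23e-05), Pgf stood at -0.35 and Figf at 1.11. Ndrg2 rose by 0.58 in MLX-WT cells, by 0.34 in MLX-DN cells and by 0.45 in MLX shRNA cells, Ndrg4 rose by 0.48 in MLX-WT cells and 0.83 in MLX-DN cells, and Ndrg3 fell by 0.39 in MLX-DN cells. Against NT shRNA, Ndrg4 was lower in MLX-WT cells (-0.29, adjusted p = 1.37e-08) and stood at 0.06 in MLX-DN cells (adjusted p = 0.0265). P4ha2 fell by 0.63 in MLX-DN cells, and P4ha3 fell by 0.61 in MLX-DN cells (-0.06 against NT shRNA, adjusted p = 0.245) and by 1.80 in MLX shRNA cells, where P4ha1 also fell.

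Outside these lists, the genes whose 5 group means were most like the median profile of the 10, by the root mean square difference of centred log2 means, were Pgm2 (0.0372), A930003A15Rik (0.0403), Fgd3 (0.0519), Sap30 (0.0878) and Cltb (0.0931). Pgm2, a sugar phosphomutase, averaged 59.3 FPKM in MLX-WT cells, 49.6 in MLX-DN cells and 46.5 in MLX shRNA cells, against 49.2 in NT shRNA cells and 33.8 in GFP control cells. Closest to Bnip3, the gene of widest span, were Nmrk2 (0.102) and Ablim1 (0.127). Nmrk2, a muscle kinase of the NAD salvage pathway, averaged 17.4 FPKM in MLX-WT cells, 20.9 in MLX-DN cells and 17.001 in MLX shRNA cells, against 15.3 in NT shRNA cells and 5.87 in GFP control cells. Ablim1, an actin-binding protein, averaged 62.1, 73.0 and 64.3 FPKM in the same construct order, against 55.5 in NT shRNA cells and 24.0 in GFP control cells. Closest to Egln3, the gene of smallest span, were Foxn2 (0.00886) and Arhgef5 (0.0132). These measures describe 5 group means and carry no test.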

How the data were processed

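Poly(A) RNA of 15 C2C12 libraries, 3 in each of 5 groups taken from the sample labels, was sequenced with a stranded kit, per the labels' protocols. CASAVA, TopHat2, STAR and build mm9 are named in the submitters' processing notes without roles, and the use of strand in counting is not given in the sources here. The table deposited by the authors holds log2 FPKM values, whose lowest value was exactly 1 in every library. They were taken to be log2(FPKM + 2), from which FPKM was recovered. The reading as 1 + log2(FPKM + 1) would give each FPKM at a lower value by the same factor, and FPKM times transcript length in kilobases then summed to 0.914 to 0.945 M under the reading used. The table holds no counts, so depth was inferred from the spacing of low FPKM values, of which 67.1% to 71.5% came within 0.05 of whole reads.

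Genes that reached 1 FPKM in 3 or more libraries were tested on the log2 scale of the deposited table by limma 3.58.1 (R 4.3.3). The model had 1 mean per group over all 15 libraries and a variance trend, and p-values were two-sided with Benjamini-Hochberg adjustment over all 11945 genes in each comparison. The test was tried on simulated data. The other settings tried were other offsets, filters, normalizations, variance models, the other control, a replicate block, a 1.5-fold limit and leaving out each library.

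The 10 genes and all lists were chosen with earlier results of these data known. The other genes named were Mlx and the HIF factors, the 2 of lowest p per list and main comparison, the paralogs, and those most alike by level. A few genes that this rule names are not reported here. Motifs came from RefSeq's GRCm38.p6 promoters and exon overlaps from the GENCODE M21 annotation, neither on the build of the notes, so they describe the gene and not the counting.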

Additional observations from a re-analysis of the deposited data

Results flagged for a closer look

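For 4 of the 10 genes the libraries moved one way with MLX-WT against the GFP control and the opposite way with MLX shRNA against NT shRNA, and the difference between those effects passed limma's test. Of all 11945 tested genes, 9.19% were called in this pattern and 9.28% in the reverse one, in which none of the 10 was. The difference was 1.55 for Bnip3, 0.34 for Egln1, 1.15 for Ankrd37 and 1.02 for P4ha1 on the log2(FPKM + 2) scale, with adjusted p-values of 1.78e-13, 1.21e-06, 6.94e-09 and 4.56e-12. For Bnip3, the 1.46 of the MLX-WT effect stands beside a gap of 1.22 between NT shRNA and the GFP control, and the effect of MLX shRNA was -0.09 against NT shRNA and 1.12 against the GFP control. For Egln1 the gap between those controls was -0.03. For Ankrd37 it was 0.37 and for P4ha1 0.32, and MLX-WT stood above NT shRNA by 0.51 and 0.30. The call of Bnip3 in MLX shRNA cells was lost with median centring (adjusted p = 0.338) or without MLX shRNA replicate 2 (adjusted p = 0.0659) or NT shRNA replicate 1 (adjusted p = 0.107), and that of Egln1, at -0.08, with median centring (adjusted p = 0.338), quantile normalization (adjusted p = 0.253) and a fit of the compared groups alone (adjusted p = 0.0526).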

How the results depend on the processing

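In the main fit 8 of the 10 genes were called for MLX-WT and 9 for MLX-DN against the GFP control, where 70.3% and 81.4% of tested genes were. For MLX shRNA against NT shRNA 9 were called, where 70.1% of tested genes were. For MLX-DN, 9 were called against MLX-WT and 6 against NT shRNA, where 72.1% and 69.7% of tested genes were. Shares of all tested genes under the other settings are not given here. The number of the 10 genes called, whatever their direction, varied over the settings other than the 1.5-fold limit and the other control. Against the GFP control it ran from 7 to 9 in MLX-WT cells and from 8 to 9 in MLX-DN cells. In MLX shRNA cells it ran from 6 to 9 against NT shRNA. In MLX-DN cells it ran from 8 to 10 against MLX-WT and from 5 to 7 against NT shRNA. Exchanging the control fell outside some of these ranges. With NT shRNA as control, MLX-WT cells had 9 of the 10 called and MLX-DN cells 6. With the GFP control, MLX shRNA cells had 8. Requiring 1.5-fold as well left 5 of the 10 for MLX-DN against the GFP control, 0 for MLX shRNA against NT shRNA, 3 for MLX-DN against MLX-WT, 1 for MLX-WT against NT shRNA, 0 for MLX-DN against NT shRNA, 5 for MLX shRNA against the GFP control and 5 for the difference of the effects, counts that a stricter limit lowers by construction. Of all tested genes it left 819 for MLX-WT and 1834 for MLX-DN against the GFP control, 706 for MLX shRNA against NT shRNA, 705 for MLX-DN against MLX-WT, 1046 for NT shRNA against the GFP control, 661 and 314 for MLX-WT and MLX-DN against NT shRNA, 1892 for MLX shRNA against the GFP control and 1261 for the difference of the effects. Of the other hypoxia-inducible genes it left 6 (MLX-WT), 8 (MLX-DN) and 4 genes (hairpin), each against its own control.

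The other control turned the direction of 11 single values. With MLX shRNA these became 1.12 for Bnip3, 1.03 for Pdk1, 0.11 for Ankrd37 and -0.45 for Ddit4. With MLX-DN they became -0.26 for Ak4, -0.036 for Egln3, -0.076 for Ankrd37, -0.46 for Ndrg1 and -0.0011 for P4ha1, and with MLX-WT -0.15 for Vegfa and -0.31 for Ndrg1. Centring libraries on their medians gave 0.032 for Pdk1 with MLX shRNA against NT shRNA, 0.021 for Egln1 with MLX-DN against the GFP control and 0.0042 for Egln3 with MLX-WT against the GFP control. It gave 0.057, 0.057, 0.017 and 0.092 for Egln1, Egln3, Ankrd37 and P4ha1 with MLX-DN against NT shRNA, of which the last passed the test (adjusted p = 0.0105), and 0.041 for Egln3 with MLX shRNA against the GFP control. Quantile normalization gave 0.028 for Pdk1 with MLX shRNA against NT shRNA, and 0.044, 0.040 and 0.033 for Egln1, Ankrd37 and P4ha1 with MLX-DN against NT shRNA. Leaving out a replicate spanned 0 for Pdk1 with MLX shRNA against NT shRNA (-0.042 to 0.00031), Egln3 with MLX shRNA against the GFP control (-0.020 to 0.0013), Ddit4 with MLX-WT against the GFP control (-0.012 to 0.030) and P4ha1 with MLX-DN against NT shRNA (-0.021 to 0.023). The cause was not tested in any of these.

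Correlations of the deviations of same-numbered libraries from their group means lay between -0.09 and 0.15. Libraries of different numbers were not compared, so these values cannot decide whether replicate numbers pair the libraries. With the replicate number as a block, Bnip3 with MLX-DN against MLX-WT, at 0.07, passed the test (adjusted p = 0.0343), and no other call of the 10 genes changed. Leaving out single libraries lost 19 calls of single genes, gained 3 and left 572 values with their direction and call. The lowest group mean among the 10 genes, 0.198 FPKM for Ak4 in the GFP control, lies above the level of 3 reads. Ak4 has no value under the filter of 5 FPKM in 3 libraries, which it did not reach.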
